A study of Mus musculus with 4 samples.

Results

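The BCL2 family decides whether a stressed cell opens its mitochondria and dies. Among its genes, 10 were named for the comparison (Bax, Bak1, Bcl2, Bcl2l1, Bcl2l11, Mcl1, Bid, Bmf, Bbc3 and Pmaip1), and the members were the probe sets annotated to exactly 1 of these genes. There were 30 such probe sets for 9 genes, of 45037 probe sets without array controls and 18193 named genes. No probe set was named for Bax alone in the annotation used here, so Bax was not analysed. The members were 15 probe sets of 6 pro-apoptotic genes and 15 probe sets of 3 anti-apoptotic genes.

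The cells were primary dermal fibroblasts from the skin of mice at postnatal day 1. The Adam9 KO group (adam9 -/-, n = 2 isolations) lacked ADAM9, a membrane-anchored metalloprotease that sheds proteins from the cell surface, and the WT group (adam9 +/+, n = 2 isolations) carried it. Both groups were untreated and were kept in culture for 48 h before RNA was taken, with 1 array for each isolation. The labels give neither the strain, the design of the knockout allele and the sex nor the number of animals behind an isolation, so p-values measure only the spread between these isolations, which may be technical. The comparison addressed which genes differ constitutively in cells without ADAM9.

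As background, the effectors BAX and BAK form pores in the outer mitochondrial membrane, through which cytochrome c leaves to start the caspase cascade. BCL-2, BCL-XL and MCL-1 hold the effectors and their activators in check, and the BH3-only proteins BIM, BID, BMF, PUMA and NOXA sense stress and either occupy these guardians or activate the effectors. In many cell types, fibroblasts included, this balance is known to set survival after growth factor withdrawal and DNA damage.

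The deposited values were taken as log2 (range 1.70 to 14.37), and all differences below are Adam9 KO minus WT on that scale. The brightest probe set, by its mean over the 4 arrays, stood for each gene, and the 13271 genes whose mean lay above the 40th percentile of all probe sets (a log2 value of 4.17) were fitted together with limma. All 9 genes passed that filter, as did 27 of the 30 probe sets. The 3 below it were 2 of Bcl2 and 1 of Bcl2l1. Every probe set was also fitted without a filter among the 34945 that name 1 gene. Adjusted p-values are Benjamini-Hochberg values of these limma fits, over genes unless probe sets are named, and a call was an adjusted p under 0.05. Between 2 arrays and 2 arrays, the smallest p an exact permutation test of a single gene can give is 0.333.

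Adam9 itself stood at 8.33 and 8.55 in the KO arrays, against 11.58 and 11.70 in the WT arrays (log2 difference -3.20, SE 0.147, limma adjusted p = 0.0242). The sources used here do not say whether its probe set lies in the deleted part. The X-inactivation RNA Xist stood at 10.38 and 10.40 in KO and at 4.29 and 4.32 in WT. Eif2s3y read 2.75 and 2.67 in KO, against 9.19 and 9.31 in WT. Kdm5d (difference -5.02) and Uty (difference -4.69) were also lower in KO. These 4 sex-linked genes were all called (limma adjusted p 0.0021 to 0.0242). Sex-linked expression, and with it any effect of the sex of the cells, cannot be told apart from genotype in any value below. The 10 fibroblast markers, among them collagen genes, Vim and Thy1, were all above the filter, with a summed linear value of 92371 to 93826 in KO and 76673 to 97169 in WT. WT isolation 2 had the lowest sum and stood below the other arrays in several of these markers, most widely in Lum, Pdgfra and Dcn. Col1a1 read 11.36 in WT isolation 2, against 12.05 to 12.26 in the other arrays. Fn1 separated the genotypes, with 12.90 and 13.16 in KO, against 13.76 and 13.73 in WT (difference -0.71, limma adjusted p = 0.283). Lum read 12.81 and 12.78 in KO, against 12.38 in WT isolation 1 and 10.13 in WT isolation 2. Pdgfra read 12.30 and 12.31 in KO, against 11.93 and 10.35 in the WT isolations, and Dcn 13.42 and 13.38 in KO, against 13.41 and 12.32. The summed value of the 15 macrophage and leukocyte markers was 611 and 478 in KO, against 11679 in WT isolation 1 and 680 in WT isolation 2. That of the 9 keratinocyte markers, of which 4 were above the filter, was 276 and 242 in KO, against 510 and 525 in WT. Within that list Perp differed by -3.84 (limma adjusted p = 0.271) and Dsp by -2.49 (limma adjusted p = 0.352). Krt10 ran the other way, with 7.17 and 7.02 in KO, against 6.92 and 6.49 in WT (difference 0.39, limma adjusted p = 0.524). Krt5 differed by -0.0063, and Krt14 was below the filter. The summed value of 7 measured proliferation markers of 8 listed was 4524 and 9751 in KO and 2250 and 1873 in WT. No detection calls were used here, so no marker can be called absent. The bulk RNA of an array cannot tell fewer cells of a type from less RNA per cell.

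No BCL2 family member passed the test. Of the 9 genes, 0 were called and 0 had an unadjusted limma p under 0.05, where 0.0678% of all 13271 genes were called and 11.4% had an unadjusted p under 0.05. Of the 30 probe sets, 0 were called (0.0286% of all) and 1 had an unadjusted p under 0.05 (9.65% of all). The adjusted p-values of the 9 genes lay between 0.464 and 0.919. Of the differences, 7 were negative and 2 positive, with a median of -0.17, beside a median of 0.0027 and 49.5% negative over all genes tested. The arrays of the 2 genotypes did not overlap for 4 members on the lower side and 1 on the higher side, among all genes for 22.0% and 23.0%.

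**Figure D1:**
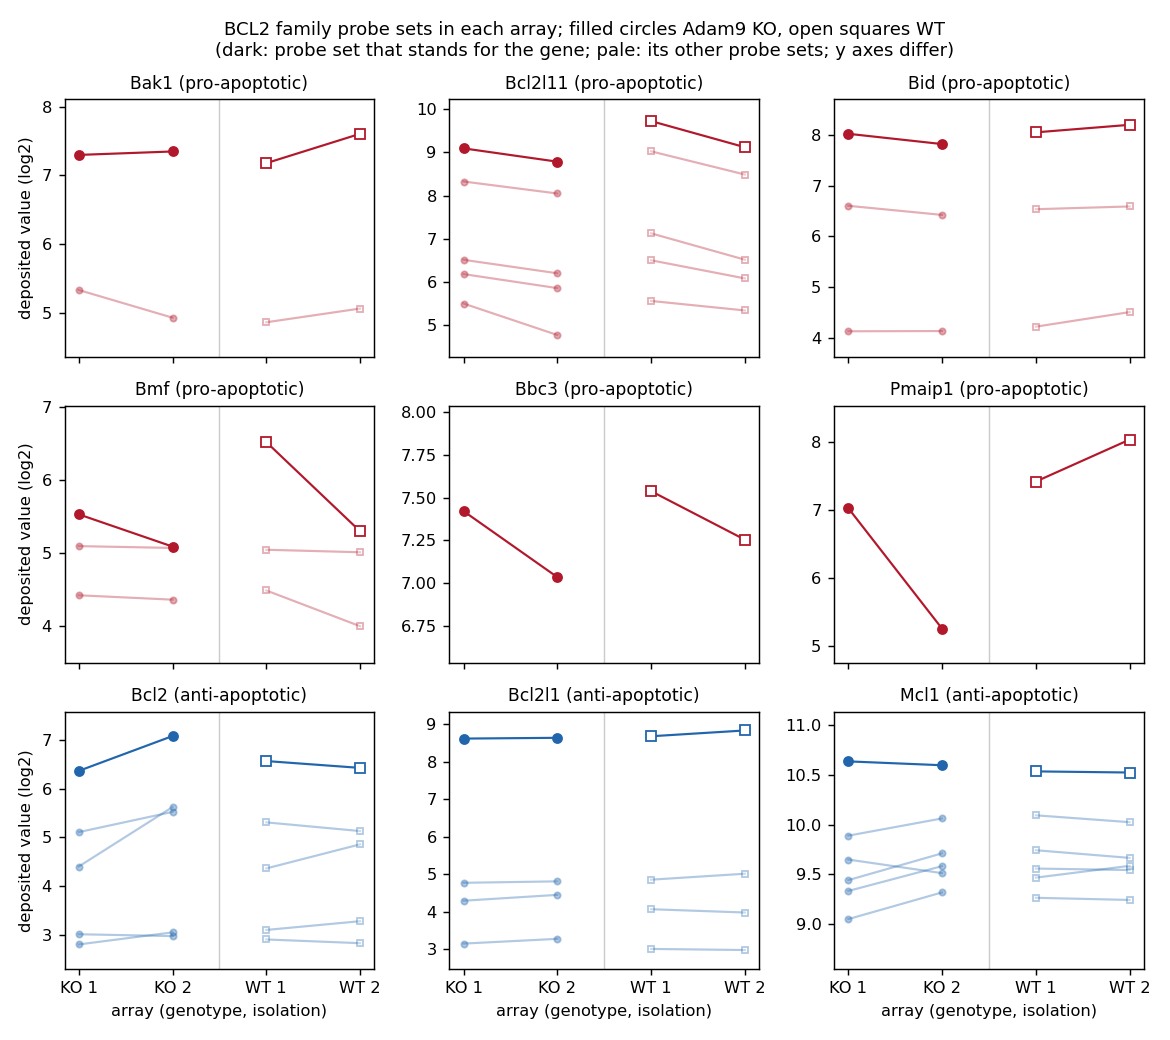
Deposited log2 values of the 30 probe sets of 9 genes (y axes, which differ between panels) in the 4 arrays (x axis), with Adam9 KO as filled circles and WT as open squares. Lines join the values of 1 probe set within a genotype, dark for the probe set that stands for the gene. Pmaip1 shows the widest spread, with 5.26 in KO isolation 2 and 8.04 in WT isolation 2, while Mcl1 and Bcl2l1 lie nearly level.

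The BH3-only genes held the 3 widest differences, and all 5 of them were negative (median -0.48), although 2 of them changed sign under an alternative. Bmf differed by 0.15 where _s_at and _x_at probe sets were not used and by 0.011 without WT isolation 1, and Bbc3 differed by 0.025 without KO isolation 2. Pmaip1 encodes NOXA, a p53-induced protein that binds MCL-1 and promotes its degradation. Its 1 probe set (1418203_at) read 7.03 and 5.26 in the KO arrays, against 7.42 and 8.04 in the WT arrays. Both KO values lay below both WT values, by 0.39 at the narrowest point, and KO isolation 2 was far below the other 3 arrays. The means were 6.15 ± 1.25 in KO and 7.73 ± 0.436 in WT (SD, n = 2 each), a difference of -1.59 (SE 0.645, 95% interval -3.32 to 0.15, limma adjusted p = 0.464). The spread between the KO isolations was of the size of that difference. Without KO isolation 2 the difference was -0.70, and without KO isolation 1 it was -2.47. WT isolation 2, the highest array for Pmaip1, was the one with the low Lum, Pdgfra and Dcn values. The keratinocyte marker sum was likewise lower in both KO arrays, as were Perp and Dsp within it, while Krt10 was higher in both. That sum rests mostly on Perp and does not stand for the keratinocyte markers as a whole. The part of these markers in the Pmaip1 values was not tested. A difference of at least 2-fold towards lower values in KO was seen for 1.94% of all genes tested, and Pmaip1 was the only member with one.

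Bcl2l11 encodes BIM, the BH3-only protein that binds all of the guardians and is induced when growth factors or attachment are lost. It was covered by 5 probe sets, and all 5 had negative differences, from -0.57 to -0.27. The probe set that stood for the gene (1456005_a_at) read 9.10 and 8.79 in KO, against 9.73 and 9.12 in WT, so that the genotypes were separated by 0.026 only. The difference was -0.48 (SE 0.259, 95% interval -1.18 to 0.21, limma adjusted p = 0.541), or 1.40-fold lower in KO. The probe set with the widest difference (1435448_at) read 8.33 and 8.05 in KO and 9.03 and 8.49 in WT (difference -0.57, limma adjusted p = 0.538 over probe sets).

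The remaining Bcl2l11 probe sets had smaller differences. The first (1435449_at) gave 6.51 and 6.20 in KO, against 7.13 and 6.52 in WT. The next (1456006_at) gave 6.18 and 5.86 in KO, against 6.50 and 6.08 in WT. The last (1426334_a_at) gave 5.50 and 4.77 in KO, against 5.56 and 5.34 in WT. The genotypes overlapped in this last pair of probe sets and not in the other 3, where 20.9% of all probe sets separated on the lower side. WT isolation 1 was the highest and KO isolation 2 the lowest array in all 5, an order found for 9.21% of all probe sets. The 5 probe sets read the same 4 RNA samples and are not replicates of each other. WT isolation 1, the highest array here, is the one with the high macrophage marker sum of 11679. Without it the Bcl2l11 difference was -0.18. The part of these markers in the Bcl2l11 values was not tested.

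Promoter sequences from RefSeq (GRCm38.p6) are shown for the members whose upstream 250 bases hold a word for a factor known to control family genes. The words searched on both strands were GTAAACA for FOXO factors, TTTGGCGC, TTTCGCGC, TTTCCCGC and TTTGCCGC for E2F factors, and the p53 half-site. Among these members, Bcl2l11 is shown whole because all 5 of its probe sets had differences of one sign. Another Bcl2l11 window, at chr2:128127325-128127574, held none of the words. The window shown lies on the plus strand at chr2:128125788-128126037. Its capitals mark a FOXO word that begins 227 bases before the annotated start.
Bcl2l11: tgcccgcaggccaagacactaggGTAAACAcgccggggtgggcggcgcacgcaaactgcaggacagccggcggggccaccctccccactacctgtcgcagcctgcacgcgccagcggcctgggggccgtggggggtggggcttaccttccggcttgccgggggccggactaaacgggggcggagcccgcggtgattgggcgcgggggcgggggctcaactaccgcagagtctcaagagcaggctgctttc

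The other matches are given as windows of 30 bases with the word in capitals. That of Bbc3 (chr7:16310082-16310111, plus strand) holds a FOXO word on the opposite strand, those of Bmf (chr2:118544781-118544810, minus strand) and Bax (chr7:45467080-45467109, minus strand) a p53 half-site, and that of Bcl2l1 (chr2:152830844-152830873, minus strand) an E2F word on the opposite strand.
Bbc3: gtctggcgggttTGTTTACaaacaatgggg
Bmf: cccaagtgaaGGGCTTGCCTcttgccgaat
Bax: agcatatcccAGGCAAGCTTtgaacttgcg
Bcl2l1: tccgcgtccctGCGCGAAAccttgagattc

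The windows searched were 16 at the annotated starts of 9 members, with Bax among them. The Pmaip1 promoter was not searched here. Of the 16 windows, 2 held a FOXO word, 2 a p53 half-site and 1 an E2F word, and no words overlapped. Among all 32851 windows the shares were 3.17%, 7.13% and 1.86%. A match describes the letters of a window and does not show a bound site. Of the genes of these factors, only Foxo1, Foxo3 and E2f1 were read, named here for the words and not by size. They did not pass the test. Foxo3 read 9.18 and 8.67 in KO, against 9.29 and 8.85 in WT (difference -0.14, limma adjusted p = 0.862). Foxo1 differed by -0.04 (limma adjusted p = 0.937) and E2f1, higher in both KO arrays, by 0.29 (limma adjusted p = 0.559). No probe set named Trp53, the gene of p53, alone.

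Bmf encodes a BH3-only protein tethered to the cytoskeleton and released on loss of attachment. The probe set that stood for it (1454880_s_at) read 5.53 and 5.08 in KO, against 6.52 and 5.29 in WT. WT isolation 1 stood above the other 3 arrays, and KO isolation 1 exceeded WT isolation 2, so the genotypes overlapped. The difference was -0.60 (SE 0.455, 95% interval -1.82 to 0.62, limma adjusted p = 0.650). It was 0.011 without WT isolation 1, again the array with the high macrophage marker sum. Its other probe sets differed by 0.15 (1422995_at, 4.42 and 4.36 in KO, 4.48 and 3.99 in WT) and by 0.05 (1458325_x_at, 5.09 and 5.07 in KO, 5.04 and 5.01 in WT). The suffixes _s_at and _x_at mark probe sets that can also bind transcripts of other genes.

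Bid encodes the protein that carries death receptor signals to mitochondria once caspase-8 has cut it. Its main probe set (1417045_at) read 8.03 and 7.82 in KO, against 8.06 and 8.20 in WT, with no overlap but a gap of 0.028. The difference was -0.20 (SE 0.147, 95% interval -0.60 to 0.19, limma adjusted p = 0.630). The other Bid probe sets differed by -0.23 (1447873_x_at, 4.13 and 4.13 in KO, 4.22 and 4.51 in WT) and by -0.05 (1448560_at, 6.61 and 6.43 in KO, 6.54 and 6.59 in WT). The lower end of the interval corresponds to 0.660-fold of WT.

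Bbc3 encodes PUMA, the p53-induced BH3-only protein that binds every guardian. Its 1 probe set (1423315_at) read 7.42 and 7.04 in KO, against 7.54 and 7.25 in WT. The genotypes overlapped, and the difference was -0.17 (SE 0.201, 95% interval -0.71 to 0.37, limma adjusted p = 0.776). Without KO isolation 2 it was 0.025. Bbc3 and Pmaip1 are both p53 targets. KO isolation 2 was the lowest array for both, while the highest was WT isolation 1 for Bbc3 and WT isolation 2 for Pmaip1.

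Bak1 was the only effector measured. Its main probe set (1418991_at) read 7.30 and 7.35 in KO, against 7.18 and 7.61 in WT, so that both KO values lay between the WT values. The difference was -0.07 (SE 0.189, 95% interval -0.58 to 0.44, limma adjusted p = 0.919). Its other probe set (1425716_s_at) read 5.33 and 4.93 in KO, against 4.86 and 5.06 in WT, a difference of 0.17 with overlap.

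The 3 anti-apoptotic genes differed by 0.23 (Bcl2), 0.09 (Mcl1) and -0.13 (Bcl2l1), with a median of 0.09. Mcl1 encodes the short-lived guardian that NOXA opposes. The probe set that stood for it (1448503_at) read 10.64 and 10.60 in KO, against 10.54 and 10.52 in WT. Both KO values lay above both WT values, by 0.062, and the difference was 0.09 (SE 0.121, 95% interval -0.24 to 0.41, limma adjusted p = 0.810). That interval runs from 0.848-fold to 1.33-fold of WT. The other 5 Mcl1 probe sets lay between -0.13 and 0.05, with overlap in each. They read 9.05 to 10.06 in KO and 9.24 to 10.09 in WT. Their sign was negative in 4 of the 5, so the direction of Mcl1 depended on the probe set.

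Bcl2l1 encodes BCL-XL and, by alternative splicing, the pro-apoptotic BCL-XS. Its brightest probe set (1420888_at) read 8.61 and 8.63 in KO, against 8.67 and 8.83 in WT, a difference of -0.13 (SE 0.131, 95% interval -0.48 to 0.22, limma adjusted p = 0.733). The probe set 1420887_a_at read 4.77 and 4.81 in KO, against 4.85 and 5.01 in WT, a difference of -0.14. The remaining pair ran the other way. The probe set 1426191_a_at read 4.29 and 4.45 in KO, against 4.07 and 3.98 in WT. The difference was 0.35 (SE 0.130), and this was the 1 member probe set with an unadjusted p under 0.05 (limma adjusted p = 0.509 over probe sets). The probe set 1426050_at, below the filter, read 3.15 and 3.28 in KO and 3.01 and 2.98 in WT (difference 0.22). All 4 separated the genotypes, with 2 lower and 2 higher in KO, where 20.9% and 20.1% of all probe sets did so. The sources used here do not say which transcript each Bcl2l1 probe set reads.

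**Figure D2:**
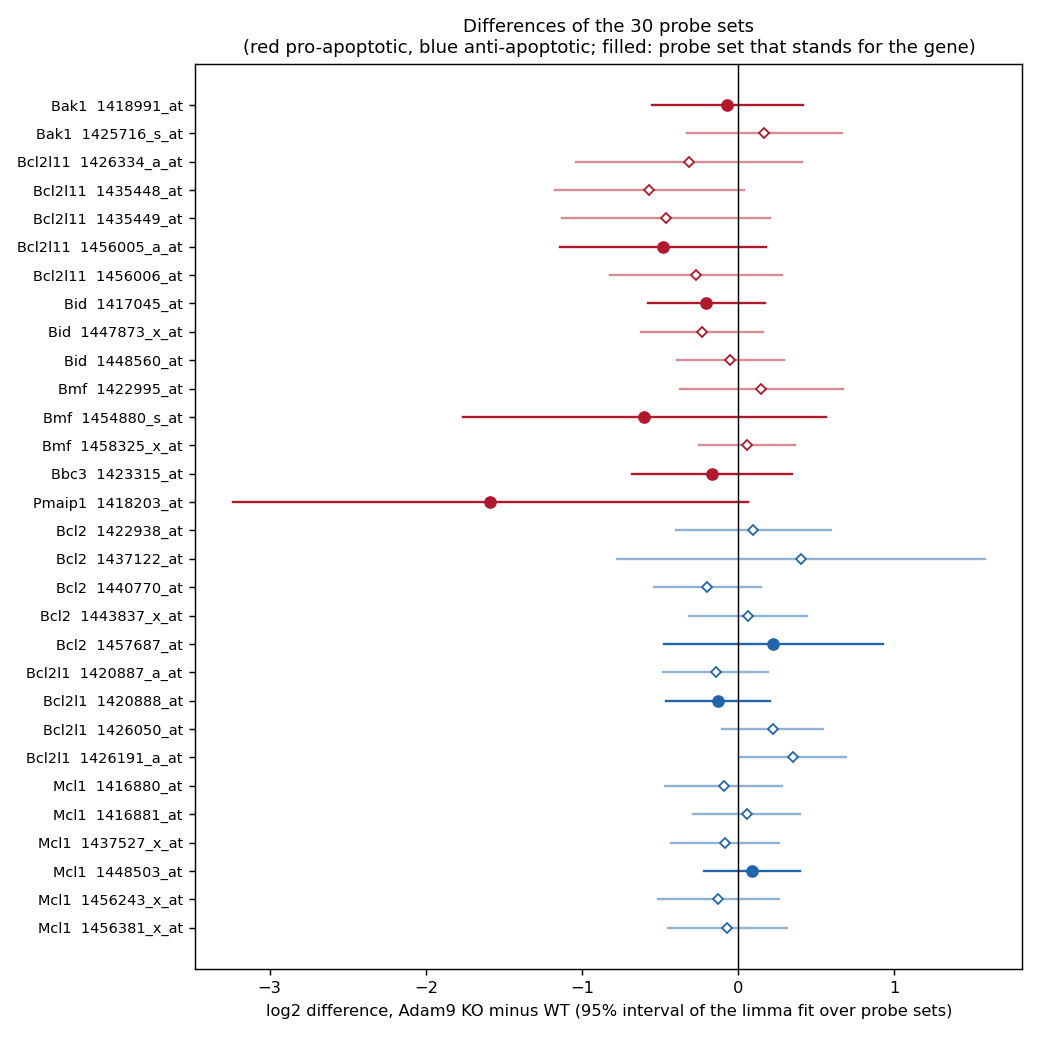
Log2 difference, Adam9 KO minus WT, of each of the 30 probe sets (x axis) with the 95% interval of the limma fit over probe sets, pro-apoptotic genes in red and anti-apoptotic genes in blue. Filled points are the probe sets that stand for a gene, and open diamonds the others. The 5 Bcl2l11 probe sets all lie left of 0, those of Bcl2l1 lie on both sides, and 1 interval (Bcl2l1, 1426191_a_at) leaves out 0.

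Bcl2 encodes the guardian that gave the family its name. Its brightest probe set (1457687_at) read 6.36 and 7.08 in KO, against 6.56 and 6.42 in WT. The KO isolations lay on either side of both WT isolations, and the difference was 0.23 (SE 0.274, 95% interval -0.51 to 0.96, limma adjusted p = 0.779). Without KO isolation 2 it was -0.13. KO isolation 2 was also the highest array of 1437122_at (4.40 and 5.62 in KO, 4.36 and 4.85 in WT, difference 0.40) and of 1422938_at (5.10 and 5.52 in KO, 5.30 and 5.13 in WT, difference 0.10). The probe sets below the filter read 2.80 to 3.05 in KO and 2.82 to 3.28 in WT, with differences of -0.20 (1440770_at) and 0.06 (1443837_x_at).

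Over all 30 probe sets, 9 separated the genotypes on the lower side and 4 on the higher side, where the shares over all probe sets were 20.9% and 20.1%. Of the 15 pro-apoptotic probe sets, 6 were on the lower and 1 on the higher side, and 12 had negative differences (median -0.23). Of the 15 anti-apoptotic ones, 3 were on each side, and 7 had negative differences (median 0.05). Several probe sets read 1 gene, so these counts are not counts of independent genes. One probe set, that of Pmaip1, differed by more than 1 log2 unit.

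The BH3-only and the anti-apoptotic genes were then set against each other within each array, as the deviation of each gene from its own mean over the 4 arrays. With Bak1 included, the 6 pro-apoptotic genes deviated on average by -0.0041 and -0.51 in the KO isolations, against 0.34 and 0.18 in the WT isolations. The 5 BH3-only genes deviated on average by 0.0069 in KO isolation 1 and by -0.62 in KO isolation 2, against 0.44 in WT isolation 1 and 0.17 in WT isolation 2. The 3 anti-apoptotic genes deviated by -0.09 and 0.15 in the KO isolations, against -0.03 and -0.03 in the WT isolations. KO isolation 2 was the array with the lowest BH3-only and the highest anti-apoptotic average. KO isolation 1 lay near 0 for the BH3-only genes and had the lowest anti-apoptotic average (-0.09). The anti-apoptotic average of KO isolation 2 came from Bcl2, which deviated by 0.47 there, beside 0.024 for Mcl1 and -0.05 for Bcl2l1. Without Pmaip1 the BH3-only average was -0.01 in KO isolation 1 and -0.35 in KO isolation 2, against 0.43 in WT isolation 1 and -0.06 in WT isolation 2, and the genotypes overlapped. KO isolation 2 also had the highest proliferation marker sum, 9751, whose part in these averages was not tested.

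**Figure D3:**
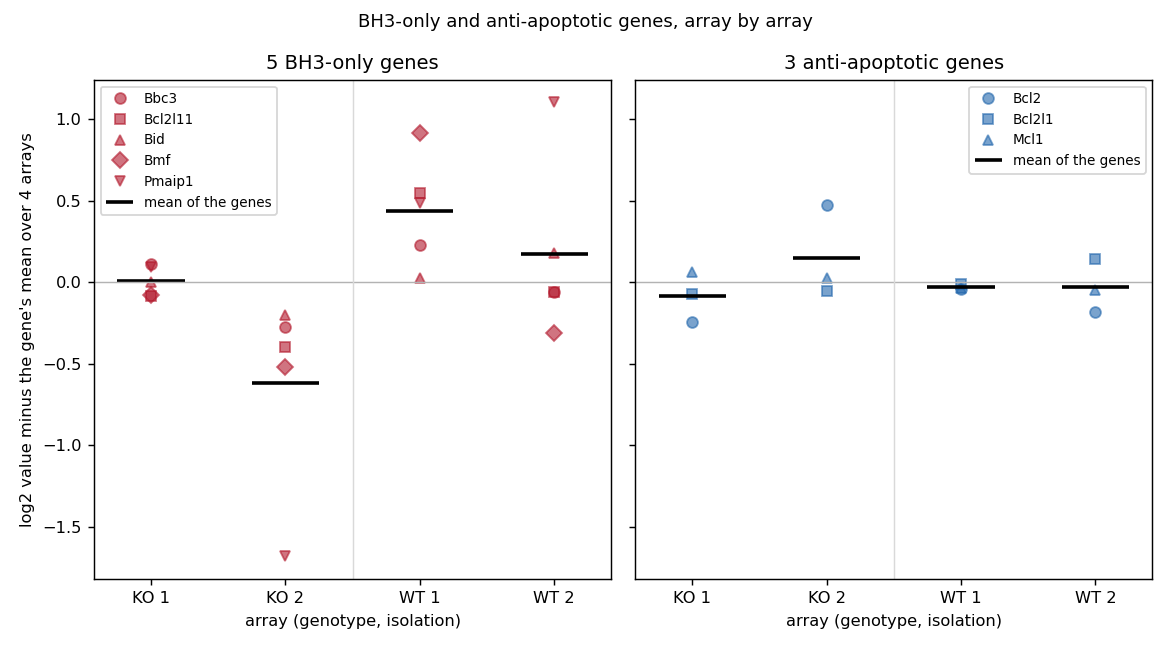
Log2 value minus the gene's mean over 4 arrays (y axis) for the 5 BH3-only genes (left) and the 3 anti-apoptotic genes (right) in each array (x axis), with black bars for the mean of the genes. The BH3-only mean is lowest in KO isolation 2 (-0.62) and highest in WT isolation 1 (0.44), and the anti-apoptotic means stay within -0.09 to 0.15.

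The rest of the pathway was read from the same fit, and no gene of the 5 lists below passed it. Of 14 other BCL2 family genes, 8 were tested and 0 called, with a median of -0.06. Bnip3, a mitochondrial protein of the mitophagy and hypoxia responses, read 8.95 and 8.57 in KO, against 9.35 and 9.46 in WT (difference -0.64, SE 0.180, limma adjusted p = 0.359). Bcl2l2, the guardian BCL-W, read 8.96 and 8.67 in KO, against 9.15 and 9.14 in WT (difference -0.33, limma adjusted p = 0.498). Bok, a BAX-like protein, differed by 0.20 with overlap.

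Among 11 tested genes of cytochrome c release, the apoptosome and the caspases (13 listed), 0 were called and the median was 0.17. On the higher side 6 separated the genotypes and on the lower side 1, where all genes gave 23.0% and 22.0%. Casp2, a caspase activated in the PIDDosome, read 8.12 and 8.73 in KO, against 7.74 and 7.46 in WT (difference 0.83, SE 0.256, limma adjusted p = 0.387). Aifm1, a flavoprotein of the mitochondrial intermembrane space, differed by 0.40 (limma adjusted p = 0.426), and Htra2, a mitochondrial protease that antagonises inhibitor of apoptosis proteins, by 0.30 (limma adjusted p = 0.585).

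Of the 5 inhibitor of apoptosis genes 0 were called, and Birc5 stood apart from the other 4. It encodes survivin, a subunit of the chromosomal passenger complex that is made in dividing cells. Birc5 read 8.88 and 9.32 in KO, against 6.89 and 6.98 in WT, with no overlap and a gap of 1.89. The difference was 2.16 (SE 0.194, limma adjusted p = 0.0819), or 4.47-fold. The 7 proliferation markers measured were likewise higher in both KO arrays than in both WT arrays, with a median difference of 2.22 and 0 called (lowest limma adjusted p = 0.0655). The ubiquitin ligase genes Birc2 and Birc3 differed by -0.19 and 0.17.

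Of 12 regulators listed, 11 were tested and 0 called. Ddit3 encodes CHOP, the transcription factor of the unresolved protein folding stress response, and read 6.71 and 5.22 in KO, against 6.85 and 7.02 in WT (difference -0.97, SE 0.521, limma adjusted p = 0.541). As for Pmaip1, KO isolation 2 was the low array. Mdm2, the ubiquitin ligase of p53 and itself a p53 target, read 10.00 and 9.66 in KO, against 10.27 and 10.94 in WT (difference -0.78, SE 0.282, limma adjusted p = 0.430). Usp9x, a deubiquitinase known to stabilise MCL-1, differed by -0.40 (limma adjusted p = 0.454).

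The p53 targets outside the family all had negative differences, 12 of 12, with a median of -0.26 and 0 called. Over all genes tested, 49.5% of the differences were negative. Of them, 6 separated the genotypes, where 22.0% of all genes did so on the lower side. Lower values of p53 targets had been seen in earlier results on these arrays when the list was drawn up. The count is therefore not independent evidence of its direction. The keratinocyte marker sum was lower in both KO arrays too. Within it Perp read 5.28 and 3.04 in KO, against 8.10 and 7.90 in WT, and Dsp was also lower, while Krt10 was higher in both KO arrays. The lower sum rests mostly on Perp and does not stand for the keratinocyte markers as a whole. Perp was listed here with the keratinocyte markers only and was not counted among the 12 p53 targets. The part of the keratinocyte markers in the p53 target values was not tested. Cdkn1a, the cell cycle inhibitor p21, read 11.78 and 11.34 in KO, against 12.09 and 12.45 in WT (difference -0.71, SE 0.227, limma adjusted p = 0.394). Rrm2b, a ribonucleotide reductase subunit, differed by -0.66 (limma adjusted p = 0.396) and Ccng1, cyclin G1, by -0.48 (limma adjusted p = 0.347). Pmaip1 and Bbc3, the p53 targets within the family, differed by -1.59 and -0.17.

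**Figure D4:**
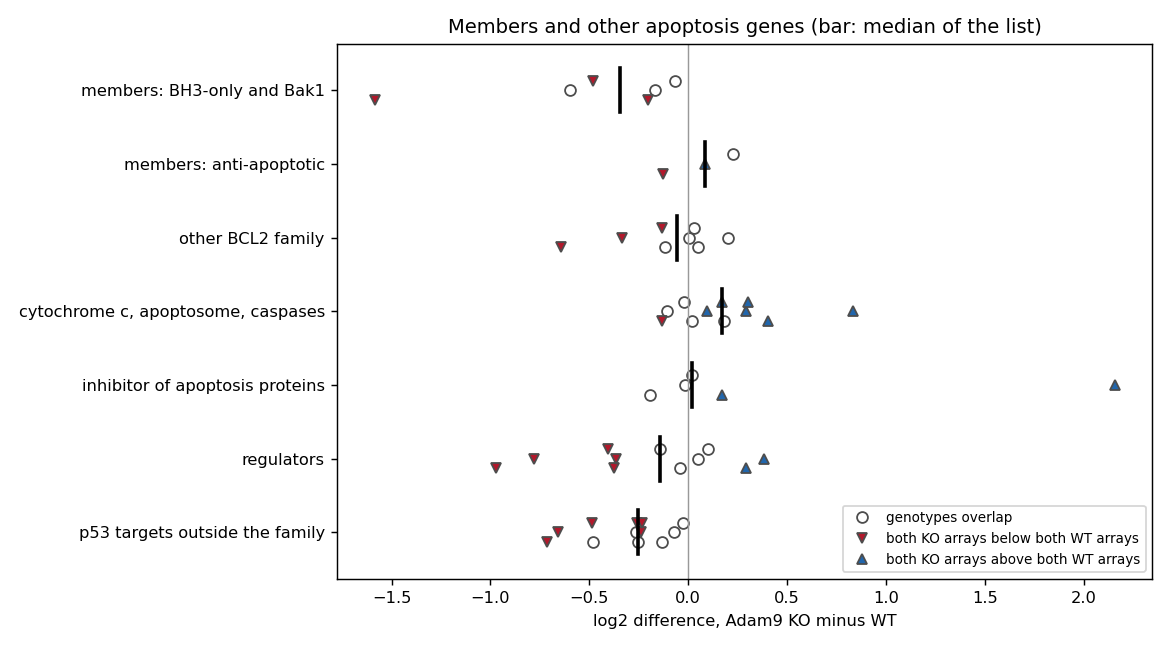
Log2 differences, Adam9 KO minus WT (x axis), of the tested members and of the genes of 5 other apoptosis lists (rows), with a black bar for each list's median. Triangles mark genes whose arrays did not overlap between the genotypes and open circles those that overlapped. Pmaip1 (-1.59) and Birc5 (2.16) lie farthest from 0, and the 12 p53 targets all lie left of it.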

How the data were processed

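The deposited table held a value for every probe set on each of 4 arrays, made by the authors with Affymetrix Expression Console, per the submitters' processing notes. Neither version nor summary method nor log base is given in the sources used here. The authors' deposited values were read as log2 from their range and nearly equal distributions (array medians 4.88 and 4.84 in KO, 4.87 in both WT arrays). With another base the folds would change and the order would not. Precision is limited by the number of arrays.

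Of 45101 probe sets, 64 were controls. The platform annotation named 1 gene for 34945 of the others, several for 932 and none for 9160, and 34754 symbols were updated by Entrez identifier through RefSeq (GRCm38.p6). Differences were fitted in R 4.3.3 with lmFit and eBayes of limma 3.58.1 (no block, 2 residual and 2.38 prior degrees of freedom), over genes and over probe sets. The procedure was tested on simulated data. Marker sums add the linear values of each marker's brightest probe set.

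The members and lists were chosen with earlier results of these data known. All members, and in each other list the 3 genes with the largest difference, are named; Foxo1, Foxo3 and E2f1 were named after their values were seen. Alternatives comprised a block on the isolation number, 2 other filters, 2 other normalizations, the mean over probe sets, omission of _x_at and _s_at probe sets, and omission of each array.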

Additional observations from a re-analysis of the deposited data

How the results depend on the processing

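No member gene or probe set was called under any alternative run, and the lowest limma adjusted p of a member gene over 11 alternative settings, which gave 98 values for the 9 genes, was 0.150 (Pmaip1 without KO isolation 1). Pmaip1, Bcl2l11 and Bid kept a negative difference under each setting, at -2.47 to -0.70, -0.79 to -0.18 and -0.31 to -0.10. In 8 of the 98 values the sign turned. With the mean over probe sets Bak1 differed by 0.050, Bcl2l1 by 0.074 and Mcl1 by -0.039, and without _x_at and _s_at probe sets Bmf differed by 0.15. Leaving out 1 array gave ranges of -0.28 to 0.15 for Bak1, -0.13 to 0.58 for Bcl2, -1.21 to 0.011 for Bmf and -0.36 to 0.025 for Bbc3. Bmf had no value under the 60th percentile filter. The isolation numbers are not stated to pair the arrays, and the deviations of same-numbered arrays correlated at 0.12 across genes. With the isolation number as a replicate block, 2 genes were called in place of 9, and 0 probe sets in place of 10, and no member's call changed. With any 1 array left out, 0 genes and 0 probe sets were called, at 714 to 2281 genes with an unadjusted p under 0.05. A lone array is then assumed to vary like the other group. The cause of these changes was not tested. Low values have no stated background level, which limits what the dim probe sets of Bcl2, Bcl2l1 and Bmf can show.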
